A study of Mus musculus with 18 samples.

Results

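The 10 genes described here encode the granins Chga, Chgb, Scg2 and Scg3, the granin relative Scg5, the prohormone convertases Pcsk1 and Pcsk2, the Pcsk1 inhibitor Pcsk1n, the carboxypeptidase Cpe and the granule protein Resp18. They were chosen by gene symbol, 10 of the 24054 genes in each table, and all 10 were measured in hypothalamus, pituitary and thyroid and passed the filter on low values in each tissue. RNA-Seq of the 3 tissues was available from untreated 3-month-old male mice, 3 WT and 3 TRbK146Q mutant (K146Q), all on strain C57BL/Ntac, for 18 libraries in 6 groups of 3. The K146Q mice were homozygous for a whole-body knock-in that replaces a lysine (K146) used for sumoylation in all isoforms of thyroid hormone receptor β, so no single tissue carried the change alone. WT libraries came from mice numbered 1, 2 and 43 and K146Q libraries from mice numbered 60, 62 and 83 in every tissue. Values are read counts normalized for library size (CPM).

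Peptide-secreting cells store their products in dense-core granules. Granins aggregate in the trans-Golgi network and help to form these granules, in which the convertases PC1/3 (Pcsk1) and PC2 (Pcsk2) cut prohormones at pairs of basic residues and carboxypeptidase E (Cpe) trims the exposed ends. The 7B2 protein (Scg5) is the chaperone that PC2 needs for activity, and proSAAS (Pcsk1n) inhibits PC1/3. Chromogranin A (Chga) is a general marker of endocrine cells, including parathyroid chief cells and thyroid C cells.

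Promoter sequence was examined because several granin and convertase genes are textbook targets of cAMP signaling. RefSeq promoters (GRCm38.p6, from 250 bases before to 50 bases after a start site) were matched by symbol for 9 of the 10 genes, all but Cpe. The full cAMP response element TGACGTCA, searched on both strands, was present in 3 of the 9, Scg2, Chgb and Pcsk1, and in 1.79% of all 32851 promoters. Its core TGACG, which lies within the full element and was also searched on both strands, was present in 7 of the 9 and in 20.8% of all promoters. The nuclear receptor core AGGTCA was in 0 of the 9 and 16.3% of all, and the letters TATAAA were in 1 of the 9, Chga, and 13.6% of all. The windows of 30 bases around the matches are shown for the 3 genes with the full element and for Chga, the most abundant of the 10 genes per length in the WT thyroid, which held the core alone. Capitals mark the full element or the core.
Scg2: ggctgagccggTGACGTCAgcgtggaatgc
Chgb: gggctgctccgTGACGTCAgggctgagcga
Pcsk1: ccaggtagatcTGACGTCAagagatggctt
Chga: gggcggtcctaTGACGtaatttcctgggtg
The Scg2 window lies at chr1:79440076-79440105 on the minus strand, and its element begins 68 bases before the start site. The Chgb window lies at chr2:132781559-132781588 on the plus strand, with the element 72 bases before the start. The Pcsk1 window lies at chr13:75089768-75089797 on the plus strand, with the element 78 bases before the start. The Chga window lies at chr12:102554886-102554915 on the plus strand, with the core 44 bases before the start. A match is a description of these letters, not evidence of binding.

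The libraries held 14902330 to 21230050 reads. No member was at 0 in any library, and the smallest read number behind a member's value was 26, for Pcsk1 in the K146Q thyroid. Together the 10 genes took 0.484% to 0.538% of reads in the 6 hypothalamus libraries. In pituitary they took 1.25% to 1.45% in WT and 2.99% to 3.75% in K146Q mice, and in thyroid 0.629% to 1.12% in WT and 0.209% to 0.423% in K146Q mice. The tissue labels were met by their defining genes: hypothalamus held the neuronal gene Rbfox3 at 135 to 158 CPM, pituitary held Gh at 62503 to 213048 CPM and thyroid held Tg at 83869 to 357296 CPM. Tg was also read at 119.9 to 169.7 CPM in every hypothalamus and pituitary library, a mean of 0.0670% and 0.0635% of its thyroid level, and Gh at 81.9 to 113 CPM in hypothalamus.

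**Figure D1:**
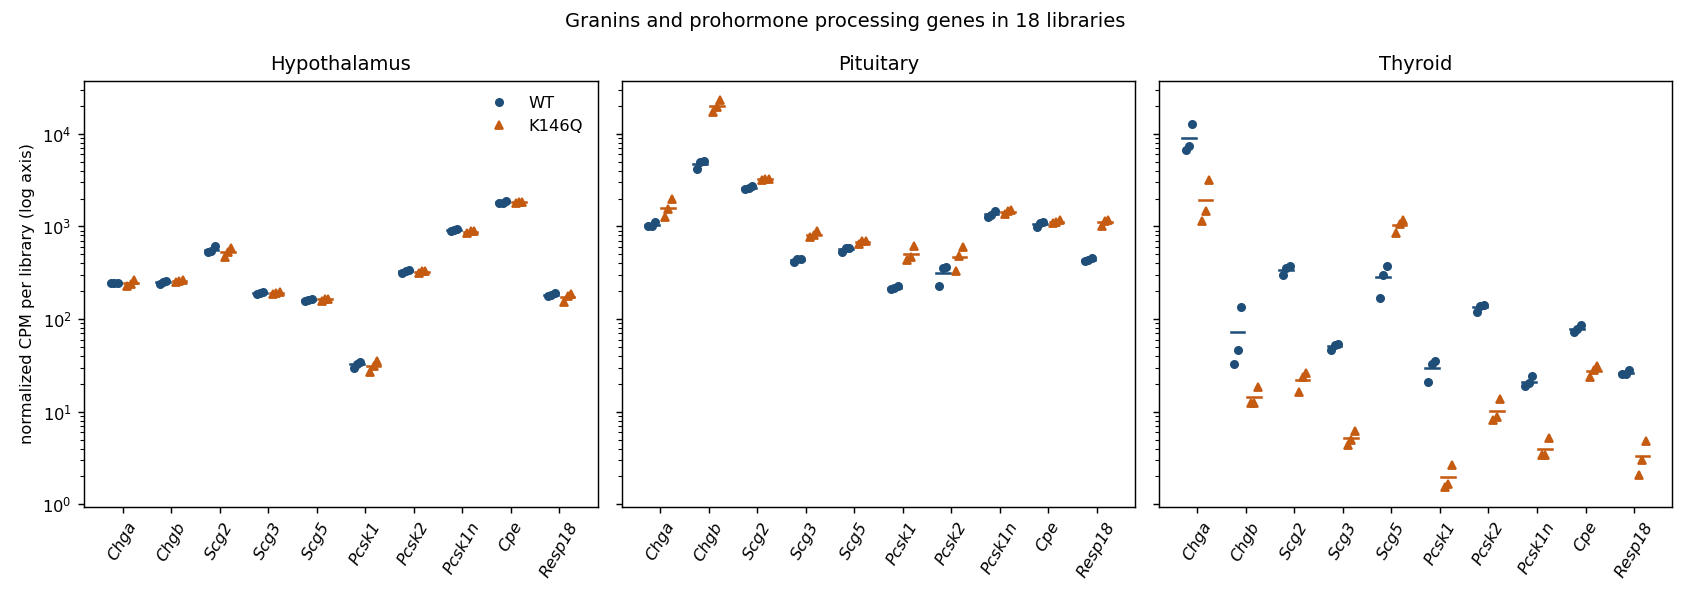
Normalized CPM (log axis) of the 10 genes in each of 18 libraries, with 1 panel per tissue. Points are libraries (circles WT, triangles K146Q) and short lines are group means of 3; the genotypes lie together in hypothalamus, Chgb is higher in the 3 K146Q pituitaries (17148 to 22951) than in the 3 WT pituitaries, and 9 genes are lower and Scg5 is higher in the K146Q thyroid.

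WT mice were used to ask where each gene is expressed. Per kilobase of exon, Cpe was the highest of the 10 in hypothalamus (696 ± 20.8 CPM per kb, SD, n = 3), Chgb in pituitary (1727 ± 178) and Chga in thyroid (3268 ± 1208). Pcsk1 was the lowest in each tissue, at 5.78 ± 0.439 CPM per kb in hypothalamus, 38.8 ± 1.28 in pituitary and 5.28 ± 1.38 in thyroid. In pituitary the Pcsk1 and Pcsk2 levels per kb (37.7 to 40.2 and 28.8 to 46.1 over the libraries) overlapped. Cpe (378 to 432) overlapped both Resp18 (414 to 438) and Chga (363 to 409) there, which were apart from each other, and Scg5 (342 to 377) overlapped Chga. In hypothalamus Chga (89.3 ± 0.125) and Chgb (91.1 ± 3.98) overlapped as well, while Pcsk1n was second at 415 ± 8.31. In thyroid Scg5 (107 to 239) and Scg2 (119.8 to 147) overlapped below Chga, and Chgb (12.0 to 49.7) overlapped Cpe above it and Resp18, Scg3 and Pcsk2 below it. The length used here joins all exons of a gene. By longest transcript instead, the WT pituitary means were 43.1 for Pcsk1 and 67.0 for Pcsk2. The WT hypothalamus means were then 131 for Chga and 91.1 for Chgb. Orders between the extremes therefore depend on the length used, while the highest and lowest gene of each tissue stayed the same.

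Between the WT tissues, limma on log2(CPM + 0.5) with Benjamini-Hochberg adjustment called 9 of the 10 genes different between pituitary and hypothalamus, where 72.5% of all genes tested were called. 8 were higher in pituitary and 1 lower (36.9% and 35.6% of all genes), led by Chgb with a log2 difference of 4.24 (SE 0.40, adjusted p = 3.7e-06), Pcsk1 with 2.73 (SE 0.16) and Scg2 with 2.22 (SE 0.0987). Cpe was the gene lower in pituitary, with a log2 difference of -0.77 (SE 0.0845, adjusted p = 1.3e-05), from 1816 ± 54.3 to 1064 ± 72.8 CPM. Pcsk2 did not pass the test (-0.0787, SE 0.16, adjusted p = 0.671), and its sign turned to 0.15 (adjusted p = 0.156) without WT mouse 43, 0.37 under quantile normalization and 0.19 when libraries were scaled by totals without the 10 highest genes. That mouse had the lowest pituitary Pcsk2, 228 CPM against 365 and 356.

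Chga was the gene that stood far above the other tissues in WT thyroid, while most members were lower there. All 10 genes were called between thyroid and pituitary (74.8% of all genes, 36.4% higher and 38.3% lower), Chga higher in thyroid by 3.05 (SE 0.20, adjusted p = 2.4e-07) and the other 9 lower, by differences from -1.09 (Scg5) to -6.30 (Chgb) on the log2 scale. Against hypothalamus, 9 were called (81.3% of all genes, 41.5% higher and 39.8% lower): Chga was higher by 5.13 (SE 0.20, adjusted p = 2.0e-09) and Scg5 by 0.73 (SE 0.23, adjusted p = 0.0115), and 7 were lower, with Pcsk1n at -5.41 (SE 0.0932) and Cpe at -4.52 (SE 0.0845) the furthest. The Scg5 call was lost without WT mouse 1 (0.50, adjusted p = 0.0919) or WT mouse 43 (0.63, adjusted p = 0.113), and without the filter on low values (adjusted p = 0.0529). Chgb, at -2.07 (SE 0.40), was at -2.66 without WT mouse 1. Pcsk1 did not pass the test (-0.16, SE 0.16, adjusted p = 0.373), and its sign turned to 0.12 without WT mouse 43. Each gene's order over the tissues therefore was pituitary, hypothalamus, thyroid for Chgb, Scg2, Scg3, Pcsk1n and Resp18, with thyroid first for Chga, hypothalamus first for Cpe, thyroid second for Scg5 (its place above hypothalamus resting on the mice and the filter named), no resolved first place for Pcsk2, and no resolved second place for Pcsk1.

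**Figure D2:**
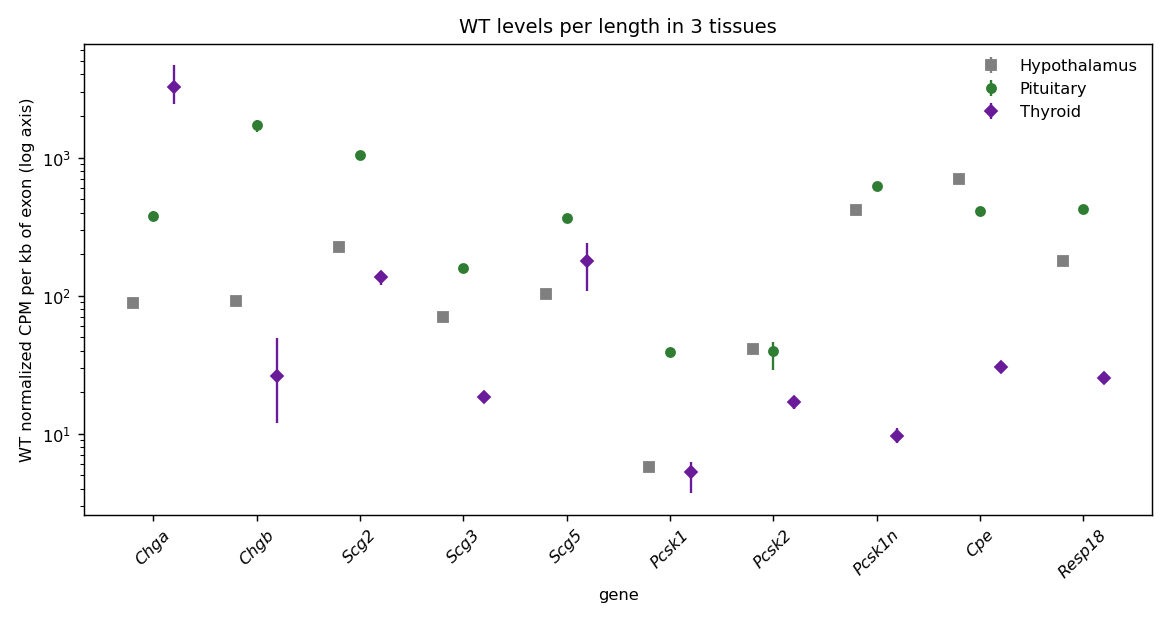
WT levels of the 10 genes per kilobase of exon (normalized CPM per kb, log axis) in hypothalamus, pituitary and thyroid. Symbols are means of 3 mice and bars run from the lowest to the highest; Chga reaches 3268 CPM per kb in thyroid, Chgb 1727 in pituitary and Cpe 696 in hypothalamus.

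In hypothalamus the 10 genes stood at close to the same level in both genotypes and none passed the test. Limma called 0 of 10, and 0% of the 15761 genes tested. Unadjusted p was under 0.05 for 645 genes, the edgeR quasi-likelihood test called 0 genes and DESeq2 called 9, with no member among them. Cpe, the most abundant of the 10 there, had WT values of 1779, 1791 and 1878 CPM and K146Q values of 1823, 1827 and 1790.4. Resp18 had the largest difference, -0.0929 on the log2 scale (SE 0.0706, adjusted p = 0.998), with WT values of 181, 178 and 192 CPM and K146Q values of 177, 152 and 189. All 10 differences lay between -0.0929 and 0.0459, their median was -0.0188 against -0.00108 over all genes tested, and 0 of the 10 had groups apart (9.15% of all genes did, 4.2% higher and 4.95% lower in K146Q mice).

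In pituitary, 6 of the 10 genes rose in K146Q mice and 0 fell by limma, where 9.86% of all genes were called, 6.36% higher and 3.5% lower, although Scg2 turned to -0.14 under quantile normalization. Without the filter on low values 3 of the 10 were called, Scg3, Pcsk1 and Resp18. The genes that rose were the granins Chgb, Scg3, Chga and Scg2, the convertase Pcsk1 and Resp18. Of the 10 genes, 7 had K146Q values all above WT values and 0 all below, compared with 31% of all genes tested that had groups apart, 16.7% above and 14.3% below. The median log2 difference over the 10 was 0.57, against -0.00875 over all genes.

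Chgb, chromogranin B, was read at 4915, 4180.4 and 5101 CPM in the WT pituitaries, and the K146Q pituitaries had 22951, 19653 and 17148. The lowest K146Q pituitary was more than 3 times the highest WT pituitary, and the means differed 4.21-fold (log2 difference 2.07, SE 0.14, adjusted p = 6.5e-05). Scg3, secretogranin III, which binds chromogranin A at the granule membrane, was at 416, 444 and 442 CPM in WT and 885, 806 and 762 in K146Q mice. The groups were apart, and the log2 difference was 0.91 (SE 0.0764, adjusted p = 0.00015).

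Chga and Scg2 also rose, with weaker support. Chga was at 999.5, 1126 and 1006 CPM in WT and 1964, 1554 and 1273 in K146Q mice, groups that were apart but with K146Q mice far from each other. Its log2 difference was 0.59 (SE 0.14, adjusted p = 0.0277). The call was lost without K146Q mouse 60 (0.43), K146Q mouse 62 (0.60), WT mouse 1 (0.56) or WT mouse 43 (0.57), with adjusted p from 0.0629 to 0.0863, without the variance trend (adjusted p = 0.0765) and under quantile normalization (0.25, adjusted p = 0.299). Scg2, secretogranin II, the precursor of secretoneurin, was at 2733, 2593 and 2533 CPM in WT and 3256, 3188 and 3253 in K146Q mice. Those groups were apart too, by a log2 difference of 0.30 (SE 0.0804, adjusted p = 0.0432). Its call was kept without WT mouse 1 (adjusted p = 0.0412) and lost without each of the other 5 mice (0.28 to 0.31, adjusted p from 0.0895 to 0.151), without the trend (adjusted p = 0.0652) and with totals free of the 10 highest genes (0.25, adjusted p = 0.0787).

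Of the convertases, Pcsk1 passed the test and Pcsk2 did not, while the means of both were higher in K146Q mice. Pcsk1 was at 211, 225 and 215 CPM in WT and 611, 468 and 438 in K146Q mice. The K146Q pituitaries were all above WT, a 2.33-fold difference of means (log2 difference 1.2, SE 0.11, adjusted p = 0.00028). Pcsk2 was at 365, 356 and 228 CPM in WT and 594, 476 and 327 in K146Q mice. Its groups overlapped through WT mouse 43 and K146Q mouse 83, the difference of 0.55 (SE 0.22, adjusted p = 0.163) did not pass the test, and it passed without K146Q mouse 83 (0.78, adjusted p = 0.0450).

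Resp18, a regulated endocrine-specific granule protein, had the smallest adjusted p of the 10 genes. It was at 428, 452 and 432 CPM in WT and 1186, 1155.5 and 1011 in K146Q mice, without overlap and with a log2 difference of 1.35 (SE 0.0792, adjusted p = 3.9e-05). The trimming enzyme Cpe and the inhibitor Pcsk1n did not pass the test. Cpe was at 1128, 985 and 1080.3 CPM in WT and 1167, 1094 and 1107 in K146Q mice (0.0788, SE 0.0778, adjusted p = 0.581), but was called lower under quantile normalization (-0.28, adjusted p = 0.0285). Pcsk1n was at 1344, 1468 and 1270.4 CPM in WT and 1349, 1483 and 1501 in K146Q mice (0.0869, SE 0.0847, adjusted p = 0.575), and also turned sign under that normalization (-0.25, adjusted p = 0.0760). Scg5, at 591, 581 and 536 CPM in WT and 645, 692 and 695 in K146Q mice, had groups that were apart and just missed the threshold (0.25, SE 0.0715, adjusted p = 0.0564), while DESeq2 called it (adjusted p = 0.0191).

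Markers of the hormone-secreting cells moved in the same pituitaries. All 3 thyrotroph markers were called higher in K146Q mice: Cga, the common α subunit, went from 3157 to 4007 CPM in WT mice to 16205 to 20723 in K146Q mice, and Tshb from 235 to 593 CPM to 5600.2 to 8183, and Trhr from 5.72 to 13.6 CPM to 53.2 to 71.1. Prl and the growth hormone-releasing hormone receptor Ghrhr were called lower, and Gh did not pass the test (adjusted p = 0.0737). The summed corticotroph markers overlapped between genotypes (7627 to 11622 CPM in WT, 5973 to 10355 in K146Q), and so did the summed gonadotroph markers. The 4 neuron markers summed to 531 to 592 CPM in WT and 767 to 834 in K146Q pituitaries, with 2 of 4 higher and 1 lower in every K146Q library. Much of that rise was Syt1, with means of 216 ± 20.8 CPM in WT and 425 ± 38.2 in K146Q mice (SD, n = 3). Syt1 is also counted below among the granule and exocytosis genes, so the sum is not particular to neurons. Th, a marker of catecholamine-making nerve cells, was called higher (1.54 to 3.83 CPM in WT, 27.6 to 112 in K146Q). Within each library the ratio of Chgb to Cga was 1.27 to 1.47 in WT and 1.01 to 1.11 in K146Q mice, while that of Chgb to Tshb fell from 8.60 to 17.8 in WT to 2.74 to 3.06. Pcsk2, which stands out in the proopiomelanocortin (Pomc) cells of the intermediate lobe, had ratios to Pomc of 0.0302 to 0.0319 in WT and 0.0480 to 0.0578 in K146Q mice. The part of the cell makeup in these changes was not tested. In bulk tissue a change in the number of cells of a type and a change in RNA per cell cannot be told apart.

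In thyroid all 10 genes changed, 9 lower and 1, Scg5, higher in K146Q mice, where limma called 37.8% of all genes, 18.1% lower and 19.7% higher. These directions held under each scaling tried, and without the filter on low values the Chga and Chgb calls were lost (adjusted p = 0.386 and 0.0876). All 10 genes had groups that were apart (52.3% of all genes did, 26.6% higher and 25.7% lower). The median log2 difference was -2.59, against -0.0250 over all genes tested.

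Among the granins, Scg2 had the largest fall of the 10. WT thyroids had 370, 356 and 301 CPM, and K146Q thyroids had 23.6, 16.5 and 25.9. Every WT thyroid was more than 10 times every K146Q thyroid, and the means differed 15.6-fold (log2 difference -3.95, SE 0.17, adjusted p = 1.4e-05). Scg3 was at 53.7, 52.3 and 45.9 CPM in WT and 6.20, 4.35 and 4.92 in K146Q mice, 9.82-fold lower (-3.19, SE 0.14, adjusted p = 1.6e-05). Chga was at 6741, 12829 and 7454 CPM in WT and 3178, 1148 and 1484 in K146Q mice. The spread within each genotype was wide and the groups were still apart, with means that differed 4.65-fold (-2.30, SE 0.45, adjusted p = 0.00634).

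Chgb in thyroid was the least certain of the falls. It was at 136, 46.0 and 32.9 CPM in WT and 12.3, 12.5 and 18.7 in K146Q mice (-2.02, SE 0.47, adjusted p = 0.0130), and the call was lost without K146Q mouse 62 (-1.93, adjusted p = 0.0524). WT mouse 1 held the most Chgb, and the same thyroid library held the most pituitary hormone RNA, with Gh at 365 CPM against 125 and 99.6 in the other WT thyroids, Tshb at 35.9 against 4.56 and 3.31 and Pomc at 52.4 against 9.30 and 9.68. Without that library the Chgb difference was -1.42 (adjusted p = 0.00382). The K146Q thyroid mean of Chgb was 0.0728% of the K146Q pituitary mean, beside 0.126% for Gh, 0.0951% for Pomc, 0.0602% for Cga and 0.0532% for Tshb, genes that define pituitary cells. In WT mice that share was 1.52% for Chgb, 0.135% for Gh, 0.236% for Pomc, 1.13% for Cga and 3.20% for Tshb. For the other genes that fell, except Chga, the K146Q share ran from 0.277% (Pcsk1n) to 2.47% (Cpe). The part of RNA from pituitary in these thyroid values was not tested.

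The processing enzymes fell with the granins. Pcsk2 was at 139, 142 and 120 CPM in WT and 13.6, 8.23 and 8.79 in K146Q mice, 13.1-fold lower (-3.68, SE 0.18, adjusted p = 2.5e-05). Pcsk1 was at 35.0, 33.0 and 20.7 CPM in WT and 2.68, 1.65 and 1.52 in K146Q mice, 15.2-fold lower (-3.61, SE 0.25, adjusted p = 9.5e-05). Both convertases had their lowest WT value in mouse 43, still far above all K146Q values. Cpe had the smallest fall, from 78.1, 86.1 and 73.0 CPM in WT to 31.1, 24.0 and 28.1 in K146Q mice (-1.5, SE 0.12, adjusted p = 0.00013). Pcsk1n went from 24.0, 18.7 and 20.5 CPM in WT to 5.20, 3.41 and 3.40 in K146Q mice (-2.28, SE 0.19), and Resp18 from 28.2, 25.5 and 25.4 to 4.81, 2.06 and 2.99 (-2.89, SE 0.25).

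Scg5 moved the other way. The chaperone gene was at 376, 169 and 301 CPM in WT thyroid and at 1178, 1069 and 859 in K146Q thyroid. The lowest K146Q value was more than 2 times the highest WT value, and the means differed 3.67-fold (log2 difference 1.94, SE 0.28, adjusted p = 0.00171). Scg5 in the K146Q thyroid stood at 153% of its level in the K146Q pituitary, compared with 49.5% in WT mice.

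**Figure D3:**
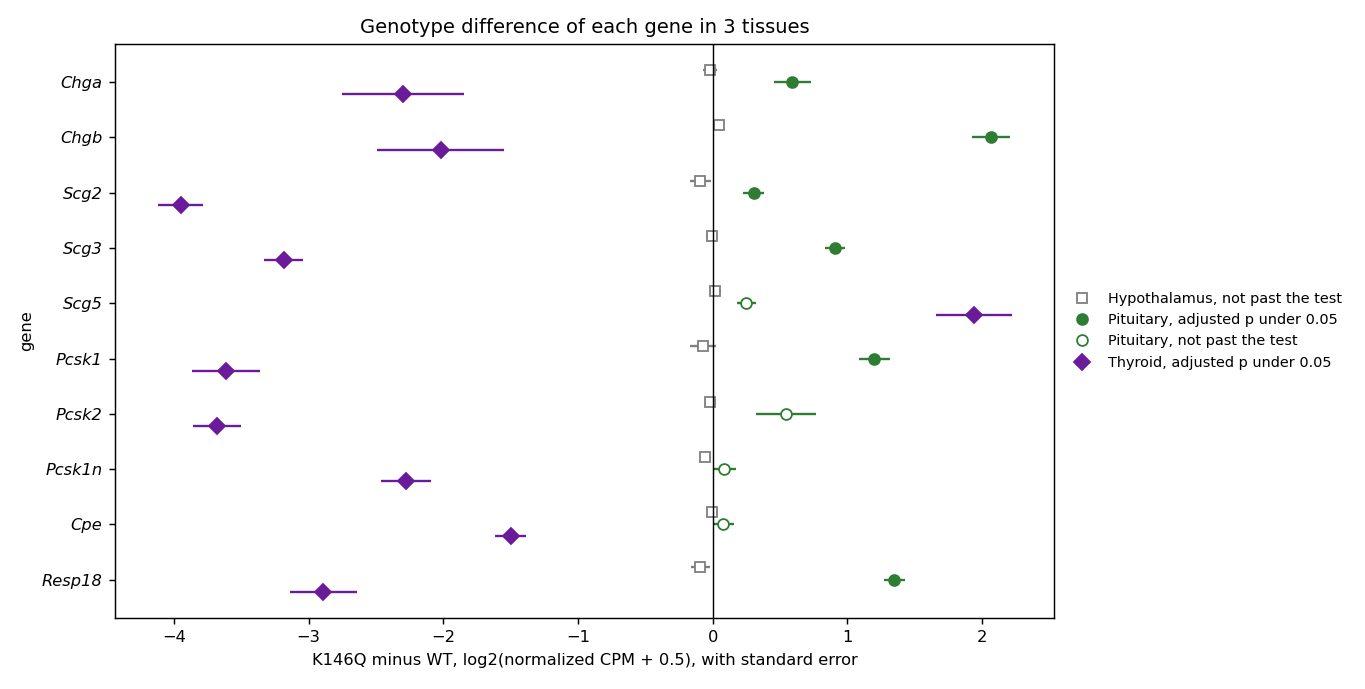
Difference between K146Q and WT mice for each gene (log2 of normalized CPM + 0.5) in hypothalamus, pituitary and thyroid. Symbols are limma estimates with standard errors from 3 mice per genotype, filled where the adjusted p was under 0.05; hypothalamus values lie within -0.0929 and 0.0459, 6 pituitary values are filled and above 0, and 9 thyroid values lie below 0 with Scg5 at 1.94.

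Hormone genes of the endocrine cells that lie in or beside the thyroid fell in the same libraries. Pth, the hormone of parathyroid chief cells, was at 3240.1, 6012 and 3917 CPM in WT and 1489, 490 and 576 in K146Q mice, and all 3 parathyroid markers (Pth, Gcm2, Casr) were called lower. Calca, the calcitonin gene of C cells, was at 2158, 2069 and 2591 CPM in WT and 310, 163 and 165 in K146Q mice. Of the other C cell markers, Calcb was higher in K146Q mice, at no more than 3.75 CPM, and Cckbr was at or near 0, at most 0.189 CPM. The summed C cell markers, nearly all of them Calca, went from 2070 to 2591 CPM in WT to 166 to 312 in K146Q mice, so the sum adds little to Calca alone. Of the nerve and sympathetic ganglion markers, Th was at most 0.442 CPM and Prph at most 0.902 CPM in any thyroid library, and Dbh was at 0 in all K146Q thyroids.

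The members kept different proportions to these hormone genes. The Chga to Pth ratio within a library was 2.08, 2.13 and 1.90 in WT and 2.14, 2.34 and 2.58 in K146Q mice, ranges that nearly met while Chga itself spanned 1148 to 12829 CPM over the 6 libraries. Relative to Calca, Chga was at 2.88 to 6.20 in WT and 7.03 to 10.3 in K146Q mice, groups that were apart. Pcsk2 to Calca was 0.0464 to 0.0685 in WT and 0.0438 to 0.0534 in K146Q mice, and Pcsk1 to Calca was 0.00801 to 0.0162 and 0.00864 to 0.0101. Scg2 and Scg3 likewise overlapped between genotypes relative to Calca (0.116 to 0.172 and 0.0763 to 0.157 for Scg2, 0.0177 to 0.0253 and 0.020 to 0.0299 for Scg3). Resp18 (0.00979 to 0.0131 in WT and 0.0126 to 0.0182 in K146Q mice) overlapped too. The groups were apart for Cpe, at 0.0282 to 0.0416 of Calca in WT and 0.1003 to 0.171 in K146Q mice, and for Pcsk1n, at 0.00791 to 0.0111 and 0.0168 to 0.0209. Tg, the thyroglobulin gene of the follicular cells themselves, went from 293439 to 357296 CPM in WT to 83869 to 130421 in K146Q thyroids. Other cells' markers moved too: the summed adipocyte markers went from 359.9 to 405 CPM in WT to 54.1 to 108 in K146Q thyroids, all 3 endothelium markers were higher, the summed leukocyte markers went from 28.0 to 40.2 CPM to 65.2 to 80.3, and the summed skeletal muscle markers ranged from 238 to 5053 CPM in WT and 526 to 2969 in K146Q thyroids. The part of these cell types in the members' changes was not tested.

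**Figure D4:**
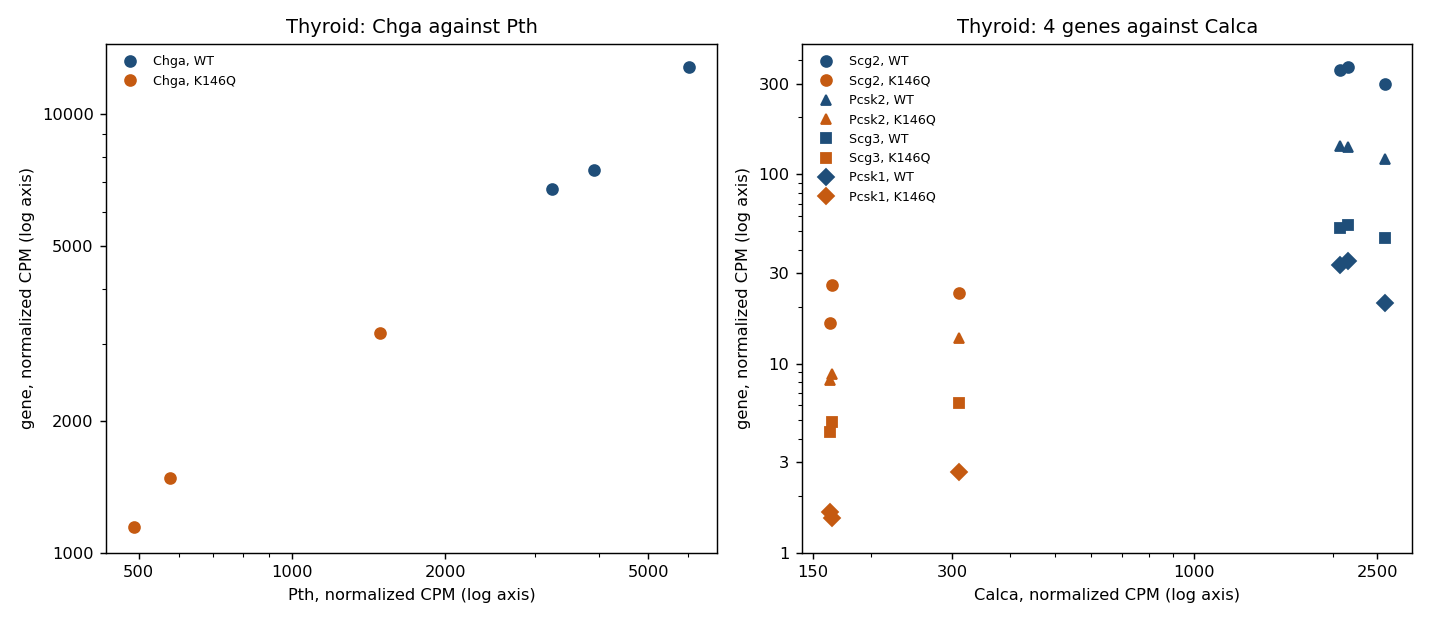
Thyroid libraries, with Chga against Pth on the left and Scg2, Pcsk2, Scg3 and Pcsk1 against Calca on the right (normalized CPM, log axes, 1 symbol per library and gene). K146Q thyroids lie at the lower left in both panels; the Chga to Pth ratio runs from 1.90 to 2.58 over the 6 libraries.

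Ratios of CPM within a library, given here as ranges, compare enzymes with their partners free of library scaling. Their tests are exact two-sided permutation tests of 3 mice against 3 on log2((a + 0.5)/(b + 0.5)), which cannot give a p below 0.1. The log2 differences come from the tested values, which the pseudocount of 0.5 can shift where a gene is low. In pituitary, Pcsk1 to Pcsk2 was 0.580 to 0.944 in WT and 0.982 to 1.34 in K146Q mice (log2 difference 0.65, exact p = 0.1), and Pcsk1n to Pcsk1, inhibitor to enzyme, was 5.90 to 6.51 in WT and 2.21 to 3.43 in K146Q mice (-1.11, exact p = 0.1). Neither pair of groups overlapped. Scg5 to Pcsk2 did overlap, at 1.62 to 2.35 in WT and 1.09 to 2.12 in K146Q pituitaries (-0.30, exact p = 0.4).

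In thyroid, Pcsk1 to Pcsk2 overlapped (0.173 to 0.251 in WT, 0.173 to 0.20 in K146Q, log2 difference 0.0668, exact p = 0.9), although each convertase fell more than 13-fold. The sign of that difference turned with a pseudocount of 0.1, and Pcsk1 was at only 1.52 to 2.68 CPM in the K146Q thyroids. The Pcsk1n to Pcsk1 ratio was higher in all K146Q thyroids (1.94 to 2.23, against 0.567 to 0.988 in WT; 1.34, exact p = 0.1). Scg5 to Pcsk2, chaperone to enzyme, was 1.19 to 2.69 in WT and 86.7 to 130 in K146Q thyroid, a log2 difference of 5.62 (exact p = 0.1). In hypothalamus the same ratio was 0.468 to 0.518 in WT and 0.484 to 0.527 in K146Q mice (0.0389, exact p = 0.5), and the other 2 ratios overlapped as well (exact p = 0.9 for each).

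**Figure D5:**
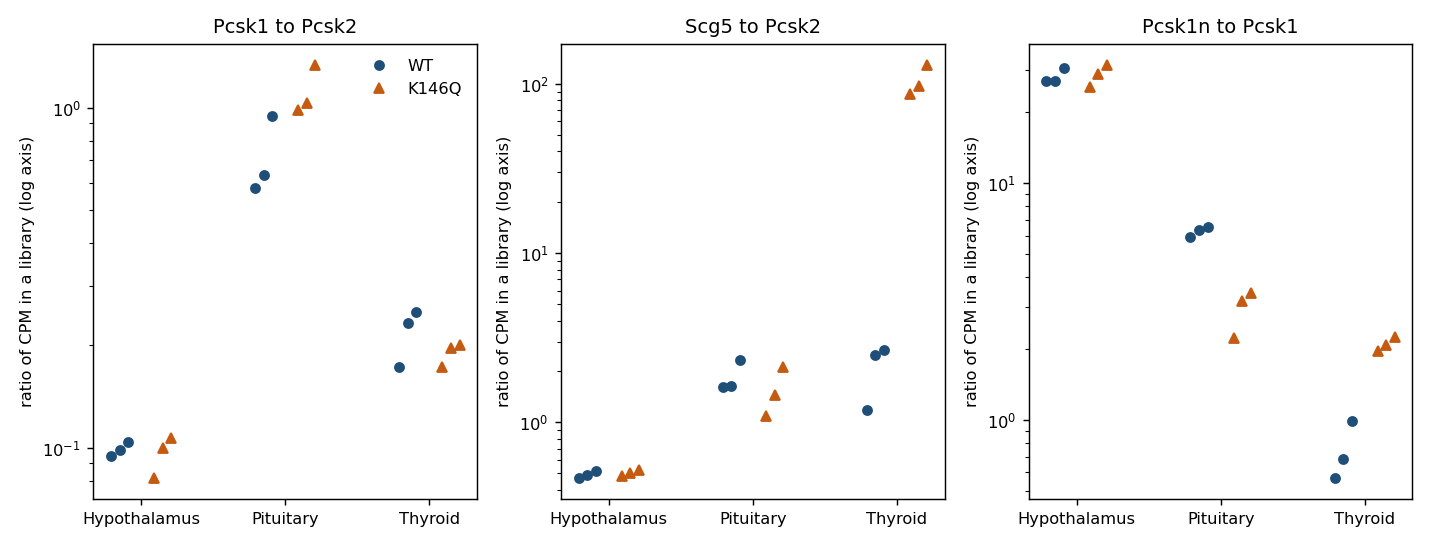
Ratios of CPM within a library (log axes) for Pcsk1 to Pcsk2, Scg5 to Pcsk2 and Pcsk1n to Pcsk1 in the 3 tissues, 1 point per library (circles WT, triangles K146Q). Scg5 to Pcsk2 is 86.7 to 130 in the K146Q thyroid and at most 2.69 in the other groups; Pcsk1n to Pcsk1 moves down in pituitary and up in thyroid.

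Whether the genotype difference itself varied by tissue was tested in 1 limma model of all 18 libraries. Between thyroid and pituitary all 10 genes differed in their genotype effect (33.8% of all genes did, 16.4% higher and 17.4% lower), 9 with a lower effect in thyroid, from -1.58 for Cpe to -4.81 for Pcsk1 on the log2 scale, and Scg5 with a higher one (1.69, SE 0.27, adjusted p = 0.00013). Between thyroid and hypothalamus all 10 differed as well (30.8% of all genes, 15.6% higher and 15.2% lower), again 9 lower and Scg5 higher (1.92, SE 0.27). Between pituitary and hypothalamus 4 genes differed (3.24% of all genes, 2.29% higher and 0.945% lower), Chgb (2.02), Resp18 (1.44), Pcsk1 (1.27) and Scg3 (0.92), each with the higher effect in pituitary. The Resp18 and Scg3 calls held without each mouse in turn. That of Chgb was lost without each K146Q mouse in turn or WT mouse 2, and without the filter on low values (adjusted p = 0.0773). That of Pcsk1 was lost without K146Q mouse 62 or WT mouse 2. The model uses 1 spread per gene for all 3 tissues. The Chgb SE was 0.46 in it, and 0.14, 0.0421 and 0.47 with pituitary, hypothalamus and thyroid fitted alone. Fitted alone, the pituitary Chgb call held in all 6 fits that left out a mouse.

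Other genes of the pathway were counted from fixed lists. Of 16 tested genes for peptide finishing and other convertases, 4 were called higher and 2 lower in the K146Q pituitary, beside 6.36% and 3.5% of all genes, with a median log2 difference of 0.0781 over the list against -0.00875 over all genes. The largest were the granin-like Vgf (16.7 ± 9.53 CPM in WT and 126 ± 62.4 in K146Q, SD, n = 3; 2.91, adjusted p = 0.00151) and Cpn1 (0.495 ± 0.268 to 2.55 ± 0.255 CPM; 1.65). The convertase genes Pcsk6 (-0.87, adjusted p = 0.00261) and Furin (-0.26, adjusted p = 0.0302) were lower, the latter call lost without the variance trend (adjusted p = 0.0829) and without each mouse but WT mouse 1. In thyroid 6 were higher and 2 lower, beside 19.7% and 18.1% of all genes, with a median of 0.125 over the list against -0.0250 over all genes. The lysosomal protease Ctsb went from 1402 ± 354 to 6211 ± 463 CPM (2.18, adjusted p = 0.000785) and Cpn1 from 0.347 ± 0.272 to 7.60 ± 2.15, while the glutaminyl cyclase Qpct (-0.98) and Pcsk6 (-0.52) were lower, the last lost without K146Q mouse 62 or 83 or WT mouse 1 (adjusted p from 0.0504 to 0.0532). Pam, the peptide-amidating enzyme, is named here after its values were seen: unlike Cpe it rose in thyroid, from 466 ± 71.4 to 960.2 ± 97.4 CPM (1.05, SE 0.15, adjusted p = 0.00157), and in pituitary from 754 ± 80.1 to 1134 ± 39.0 CPM (0.59, adjusted p = 0.00316).

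Of 32 tested genes for dense-core granules and exocytosis, 7 were called higher and 0 lower in the K146Q pituitary, beside 6.36% and 3.5% of all genes, with a median of 0.0783 against -0.00875. Ptprn, which encodes the granule membrane protein IA-2, was at 787 ± 83.7 CPM in WT and 1862 ± 195 in K146Q mice (1.24, adjusted p = 0.000143), and the calcium sensor Syt1 was at 216 ± 20.8 and 425 ± 38.2 (0.98, adjusted p = 0.000283). In thyroid 4 were higher and 18 lower, beside 19.7% and 18.1% of all genes, with a median of -0.47 against -0.0250. Ptprn2, the paralog of Ptprn, went from 31.9 ± 4.90 to 4.06 ± 1.01 CPM (-2.84, adjusted p = 8.2e-05) and Syt7 from 34.3 ± 2.71 to 6.59 ± 1.28 (-2.31, adjusted p = 8.6e-05). Rims1 was higher, from 0.332 ± 0.0983 CPM in WT to 6.61 ± 1.29 in K146Q mice (3.08). It passed the filter on low values through its K146Q libraries alone, so its call, counted among the 4, was not independent of the filter. Ptprn was higher as well (2.76, adjusted p = 0.0261), but it ranged from 35.1 to 377 CPM within WT thyroids and was not called by edgeR (adjusted p = 0.0934) or DESeq2 (adjusted p = 0.103). Its call was also lost in 5 of 6 fits that left out a mouse, all but that without WT mouse 43 (3.79).

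Of the listed prohormone and neuropeptide genes, 11 were tested in pituitary, where 2 were higher and 1 lower, beside 6.36% and 3.5% of all genes, with a median of -0.0637 against -0.00875. Cartpt (1.41 ± 0.401 to 37.6 ± 38.1 CPM; 3.88, adjusted p = 0.00192, and 3.10 without K146Q mouse 60) and Pdyn (13.9 ± 1.504 to 25.7 ± 0.481; 0.87) were higher and Gal was lower (17.4 ± 11.9 to 4.96 ± 2.05; -1.57, adjusted p = 0.0408). The Gal call was lost without the variance trend (adjusted p = 0.0966) and without each mouse but WT mouse 1. In thyroid 6 were tested, and 4 were lower and 0 higher, beside 18.1% and 19.7% of all genes, with a median of -1.99 against -0.0250, and with Calca (-3.48, SE 0.25, adjusted p = 0.000105) and Sst (6.63 ± 2.28 to 0.423 ± 0.178 CPM; -2.92) the furthest. In hypothalamus 0 genes of the 3 lists were called, of 16, 32 and 22 tested.

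The genes whose pattern was most like the mean profile of the 10 members over the 18 libraries, by Pearson correlation of log2 values among 15440 genes, were Stk32a (r = 0.99), Thrb (r = 0.99), Thsd4 (r = 0.98), Tle4 (r = 0.98) and Nudt16 (r = 0.98). These correlations describe 6 tissue and genotype groups of 3 libraries each and are not independent tests. Among the members, Pcsk1, Scg2, Scg3, Resp18 and Chgb followed the mean profile most closely (r = 0.99, 0.98, 0.98, 0.98 and 0.97), Cpe less so (r = 0.78), and Scg5 (r = -0.0705) and Chga (r = -0.17) did not. Each member is itself part of that mean, so a member's r is high in part by construction.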

How the data were processed

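RNA-Seq of hypothalamus, pituitary and thyroid from 3 WT and 3 K146Q mice was analysed, grouped by the tissue, genotype and mouse number in the sample titles. The authors deposited for each tissue a table of a normalized signal per gene and library, in CPM; the submitters' processing notes name bcl2fastq 2.17, Bowtie2 2.1.0, RSEM 1.2.15 and mm10, without their roles. Dividing by the worth of 1 read gave whole reads for 100% of 432972 values (tolerance 0.05 reads). The implied scaling was within 0.0899% of TMM factors over all 18 libraries and up to 17.7% from TMM within a tissue, so the tables were read as sharing 1 scale. Columns with the authors' own fold changes, averages and p-values were not used. A set of 27 symbols had turned into dates in hypothalamus and pituitary, which left 24027 genes for comparisons between tissues.

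Values were compared with limma 3.58.1 (R 4.3.3) on log2(CPM + 0.5) with a variance trend and Benjamini-Hochberg adjustment over all genes that reached 0.5 CPM in 3 or more libraries of the fit, at a threshold of 0.05. Differences are on that log2 scale and come out too small for genes near the pseudocount. Tissues were fitted alone, WT tissues in 1 fit of 9 libraries, and differences of genotype effects in 1 fit of 18. Ratios had exact permutation tests. The scripts were tested on simulated data. Alternatives were other pseudocounts, filters and scalings, no trend, edgeR 4.0.16 and DESeq2 1.42.0 on the recovered reads, and leaving out each mouse. Genotypes share no mouse number; across tissues the same numbers name the same animals by the series' design, and same-numbered libraries' deviations correlated at -0.0394 to 0.192 (18 pairs, 5 over 0.1), so the mouse as a block was an alternative.

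The members and gene lists were chosen with earlier results of these data known. All members were named; of each list, the 2 largest rises and falls past the threshold with a mean of at least 1 CPM in the tissue; and the 5 genes most like the members' mean profile. Of the listed genes Ccdc186 was not used here. Coordinates are from RefSeq GRCm38.p6, and exon lengths from GENCODE M21 (GRCm38). Intervals on reads were not needed at these depths.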

Additional observations from a re-analysis of the deposited data

Results flagged for a closer look

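The genotype effect of 24 gene and tissue pairs differed between tissues by a test of the difference itself, in limma on 18 libraries with 6 group means. Of all genes tested, 33.8% differed for thyroid minus pituitary, 30.8% for thyroid minus hypothalamus and 3.24% for pituitary minus hypothalamus. Thyroid minus pituitary, the log2 differences of effects were -2.89 for Chga, -4.09 for Chgb, -4.26 for Scg2, -4.10 for Scg3, 1.69 for Scg5, -4.81 for Pcsk1, -4.23 for Pcsk2, -2.36 for Pcsk1n, -1.58 for Cpe and -4.24 for Resp18, with the largest adjusted p at 0.00013 (Scg5). 6 of these genes passed the test in opposite directions in the 2 tissues taken alone, rising in pituitary and falling in thyroid: Chga, Chgb, Scg2, Scg3, Pcsk1 and Resp18. The share of all genes with such opposite calls was not counted, so the 6 cannot be set against it. In the tissues taken alone, 6.36% of all genes tested were called higher in pituitary and 18.1% lower in thyroid. Of the 6 fits that left out a mouse, the pituitary call was kept in 2 for Chga and 1 for Scg2. Pituitary Scg2 also turned to -0.14 under quantile normalization.

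Thyroid minus hypothalamus, they were -2.28 for Chga, -2.06 for Chgb, -3.86 for Scg2, -3.18 for Scg3, 1.92 for Scg5, -3.54 for Pcsk1, -3.66 for Pcsk2, -2.22 for Pcsk1n, -1.50 for Cpe and -2.80 for Resp18, with the largest adjusted p at 0.00275 (Chgb). Each of these calls held without any single mouse, as did those between thyroid and pituitary. The Chgb value was -1.47 without WT mouse 1.

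Pituitary minus hypothalamus, they were 2.02 for Chgb (adjusted p = 0.0214), 1.27 for Pcsk1 (adjusted p = 0.0107), 1.44 for Resp18 (adjusted p = 0.00192) and 0.92 for Scg3 (adjusted p = 0.000679). The Chgb call was lost without K146Q mouse 60 (1.91, adjusted p = 0.152), K146Q mouse 62 (2.02, adjusted p = 0.133), K146Q mouse 83 (2.14, adjusted p = 0.0580) or WT mouse 2 (1.97, adjusted p = 0.0876), and the Pcsk1 call without K146Q mouse 62 (1.22, adjusted p = 0.0785) or WT mouse 2 (1.28, adjusted p = 0.0507). These fits leave out a mouse from all 3 tissues and use 1 spread per gene for all 3. The spread among thyroids therefore enters the test of pituitary against hypothalamus.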

How the results depend on the processing

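Over all alternatives and members, direction and call were unchanged in most fits, with the exceptions given here or beside the results; causes were not tested. The mouse number as a replicate block changed no call: 9, 10 and 9 members between WT tissues and 4, 10 and 10 for differences of effects were called with it. Without the filter, 12 genes were called in hypothalamus, 291 against 1537 in pituitary and 3 members in pituitary (Chga, Chgb and Scg2 lost), and the calls of Chga and Chgb in thyroid, Scg5 between WT thyroid and hypothalamus (adjusted p = 0.0529) and the Chgb difference of effects between pituitary and hypothalamus (adjusted p = 0.0773) were lost; DESeq2 called 9 genes in hypothalamus. Totals without the 10 highest genes called 835 genes higher and 878 lower in pituitary (991 and 546 in the main analysis) and 2494 and 3610 in thyroid (2992 and 2747), and moved the median of all genes to -0.12 in thyroid, to 0.26 for WT pituitary against hypothalamus and to -0.25 for WT thyroid against pituitary. In WT pituitary against hypothalamus this split was 7769 and 4603 (6140 and 5912), and in WT thyroid against pituitary 4755 and 7826 (6056 and 6372).

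Signs turned for Cpe in hypothalamus (0.000303 by median-of-ratios, 0.00407 by quantile normalization, 0.000148 by DESeq2), for pituitary Scg2 (-0.14), Pcsk1n (-0.25) and Cpe (-0.28) and for the pituitary minus hypothalamus effects of Pcsk1n (-0.17) and Cpe (-0.32) by quantile normalization, for WT Pcsk2 between pituitary and hypothalamus (0.37 by quantile normalization, 0.19 by totals without the 10 highest genes) and for the thyroid Pcsk1 to Pcsk2 ratio with a pseudocount of 0.1 (-0.13).

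Leaving out 1 mouse gave 0 to 6 genes called in hypothalamus, 625 to 1345 in pituitary and 3602 to 5106 in thyroid (752 or fewer of 1537 without K146Q mouse 60 or 62 in pituitary, fewest of 5739 without K146Q mouse 62 in thyroid). The difference of effects between pituitary and hypothalamus had 228 to 446 genes and 2 to 4 members called (fewest genes without K146Q mouse 60 or 62, fewest members without K146Q mouse 62 or WT mouse 2), and that between thyroid and hypothalamus 3476 to 4680 genes (fewest without K146Q mouse 62). The ratios (log2) ranged for Pcsk1 to Pcsk2 from -0.13 to 0.0594 in hypothalamus, 0.52 to 0.87 in pituitary and -0.0913 to 0.17 in thyroid, for Pcsk1n to Pcsk1 from -0.0548 to 0.0959 in hypothalamus, and for Scg5 to Pcsk2 from -0.55 to -0.0663 in pituitary. Signs without a call turned in hypothalamus for Chga (-0.0777 to 0.0296), Scg3 (-0.0255 to 0.0182), Scg5 (-0.00240 to 0.0409), Pcsk1 (-0.16 to 0.0316), Pcsk2 (-0.0483 to 0.000199) and Cpe (-0.0164 to 0.0229), and between WT tissues for Pcsk2 (-0.23 to 0.15) and Pcsk1 (-0.36 to 0.12). Depth did not limit the members, but 3 mice per group leave ratios with no p below 0.1.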
